A study of Mus musculus with 26 samples.

Results

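Gonads of XY mouse embryos carrying the Δ104 deletion at the Fgf9 locus were compared with wild type (WT) gonads by RNA-seq. The members were chosen by their labelled genotype: all 4 Δ104 libraries and all 3 WT libraries, 7 of the 26 samples of the series. The labels give the genotype of the first group as Fgf9 Δ104 and of the second as WT, and the stage of both as E13.5, given in days of embryonic development. Gonads were cut free of the mesonephros, the neighbouring embryonic kidney, and frozen. Polyadenylated RNA was made into libraries with a strand-specific kit. The same table holds 3 other deletions named for Fgf9: Δ225 (6 libraries), Δ93 (6) and Δ306 (3). The labels do not give the boundaries of the deletions, the number of deleted alleles, the strain, the litters, the dates, or whether embryos were pooled. The Δ104 replicates are labelled as biological and the WT ones only by number, and nothing says that they came from separate litters. The p-values thus measure spread between samples, estimated from all 22 libraries of the table and not from these 7 alone.

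Fgf9 encodes a secreted fibroblast growth factor made by the supporting cells of the fetal testis. In XY gonads it acts with SOX9 to keep supporting cells on the Sertoli (testis) path and holds down WNT4, a signal of the ovarian path, on which supporting cells become pre-granulosa cells and switch on the transcription factor FOXL2. Sertoli cells then make anti-Müllerian hormone (Amh), signal to fetal Leydig cells through Dhh, and keep germ cells out of meiosis by degrading retinoic acid with CYP26B1. Germ cells in a fetal ovary instead switch on Stra8 and enter meiosis. A loss of Fgf9 in XY mouse gonads is known to turn part or all of the gonad toward the ovarian path.

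The data are read counts for 57186 genes. Total counts were 38.3, 53.4 and 39.8 M in WT replicates 1 to 3, and 35.2, 19.8, 17.5 and 20.8 M in Δ104 replicates 1 to 4. Values are CPM, read counts scaled to a common library size, after TMM scaling, which corrects for differences in library composition. Levels of different genes were not compared, since CPM does not account for gene length. Genes were tested in 1 edgeR quasi-likelihood fit of the 22 libraries of the table, with Benjamini-Hochberg adjustment over 22941 genes, and called at an adjusted p under 0.05. A log2 fold change is Δ104 minus WT, given with its standard error (SE). These are bulk tissues, in which fewer cells of a type and less RNA per cell cannot be told apart.

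Some libraries stood apart from the rest of their group. The germ-cell gene Ddx4 stood at 4.27 CPM in WT replicate 1 against 81.3 and 139 in WT replicates 2 and 3, and at 29.2 CPM in Δ104 replicate 3 against 148, 136 and 135 in Δ104 replicates 1, 2 and 4. WT replicate 1 also had the highest values of the mesonephric genes Cdh16 (13.4 CPM), Pax2 (7.06) and Wnt9b (7.28) among the 7 libraries. The sum over all 12 mesonephric genes did not set it apart. That sum was 49.3, 40.2 and 59.9 CPM in WT replicates 1 to 3 and 59.6, 54.6, 28.9 and 41.9 in Δ104. The XY label was checked on 4 Y-linked genes (Ddx3y, Uty, Kdm5d, Eif2s3y), whose CPM summed to 31.6, 31.2 and 77.2 in WT and to 5.16, 5.41, 1.92 and 36.2 in Δ104. Δ104 replicate 3 had 33 counts of Ddx3y and 0 of Uty, Kdm5d and Eif2s3y. Xist, which is transcribed from an inactive X chromosome, had 1 to 14 counts per library. The sums of Δ104 replicates 1 to 3 thus lay below those of WT and of replicate 4, and in the other deletions they ran from 0.0265 to 20.5 CPM, so the check did not bear out the XY label in every library. Whether this comes from sample identity or from the mapping of Y-linked reads, and its part in the results, was not tested. Each of the 7 libraries differed from its group's others beyond counting error (chi-square per degree of freedom of 28.7 to 127).

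The 2 promoters shown belong to Fgf9, the gene the deletion is named for, and Foxl2, the pre-granulosa transcription factor whose level differed from one Δ104 library to the next. Each is the 250 bases before the start annotated by RefSeq, on the plus strand of GRCm38.p6. The windows are chr14:58072436-58072685 for Fgf9 and chr9:98955357-98955606 for Foxl2. The gene coordinates given below come from another annotation, in which both genes start upstream of these windows. By those coordinates the windows lie inside the genes. Capitals mark the last 30 bases before the start. Whether Δ104 removes any part of the Fgf9 window is not given in the sources used here.

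Fgf9 promoter: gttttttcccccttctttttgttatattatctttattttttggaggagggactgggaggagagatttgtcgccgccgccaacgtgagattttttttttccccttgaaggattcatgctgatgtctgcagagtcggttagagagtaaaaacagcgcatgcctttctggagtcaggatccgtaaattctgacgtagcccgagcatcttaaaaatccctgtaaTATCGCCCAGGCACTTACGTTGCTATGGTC

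Foxl2 promoter: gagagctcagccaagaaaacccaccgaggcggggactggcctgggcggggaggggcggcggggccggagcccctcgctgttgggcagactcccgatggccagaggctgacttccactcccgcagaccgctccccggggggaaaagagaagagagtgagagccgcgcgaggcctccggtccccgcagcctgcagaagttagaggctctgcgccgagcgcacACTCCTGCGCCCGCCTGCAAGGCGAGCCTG

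Fgf9 itself (ENSMUSG00000021974, chromosome 14, 58070547 to 58112720, plus strand, GRCm38) was measured at 9.85, 9.21 and 9.55 CPM in WT and at 2.72, 5.16, 6.98 and 4.52 CPM in Δ104. All 4 Δ104 libraries lay below all WT libraries, at 28.5%, 54.1%, 73.2% and 47.5% of the WT mean. The log2 fold change was -0.98 (SE 0.40), with an adjusted p of 0.259 in edgeR, so Fgf9 was not called. Of all genes tested, 18.1% did not overlap between the groups (8.68% higher and 9.40% lower in Δ104).

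The other members of the FGF pathway were described from lists of ligands, receptors and feedback targets. None of the 9 tested ligands, 6 receptors and 12 tested targets was called, against 0.0610% of all genes. Among the ligands, Fgf16 stood at 1.26, 1.61 and 0.897 CPM in WT and at 0, 0.295, 0.465 and 0.438 in Δ104, without overlap. Fgf13 was also lower in every Δ104 library, at 8.33, 13.2, 21.2 and 21.9 CPM against 23.4 to 25.4 in WT. Among the receptors, Fgfr1 was lower without overlap (93.3, 112, 117 and 112 CPM against 157 to 167, adjusted p = 0.131 in edgeR and 0.0215 in DESeq2). Fgfrl1, a receptor without a kinase domain, was also lower without overlap (24.9, 37.5, 55.4 and 52.7 CPM against 64.5 to 75.1). Fgfr3 was the only receptor higher without overlap (32.8, 28.8, 29.1 and 26.7 CPM against 17.2 to 22.6, adjusted p = 0.368 in edgeR). Fgfr2, the receptor through which FGF9 acts in Sertoli precursors, stood at 212, 161, 143 and 73.0 CPM against 101, 76.3 and 74.1 in WT, above the WT range in 3 of 4 libraries (adjusted p = 0.156 in edgeR).

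The 12 tested targets of FGF signalling through ERK, among them its own brakes, had a median log2 fold change of -0.58, against 0.06 over all genes tested. Relative to the WT mean, the list's median was -0.82, -0.67, -0.46 and -0.31 (log2) in Δ104 replicates 1 to 4. In WT it was -0.36, 0.11 and 0.19, so replicate 4 lay inside the WT range. Only 2 members, Spry1 and Dusp6, were lower without overlap, as were 9.40% of all genes. Spry1, an inhibitor of receptor tyrosine kinase signalling, stood at 12.9, 15.7, 20.9 and 32.4 CPM in Δ104 and 40.3, 37.0 and 45.8 in WT. Dusp6, a phosphatase that inactivates ERK, stood at 17.2, 30.7, 52.0 and 54.7 CPM against 61.2, 73.9 and 71.6. Both lay below WT in all 4 libraries, in the same order of libraries, with replicate 1 lowest and replicate 4 highest. Dusp5, another ERK phosphatase, ran the other way, at 45.3, 25.5, 17.8 and 7.54 CPM against 5.35 to 10.1 in WT. None of the 3 passed the test (adjusted p of 0.0925 for Spry1, 0.222 for Dusp6 and 0.0925 for Dusp5 in edgeR). Both Spry1 and Dusp5 passed in DESeq2, with replicate numbers as a block, and without Δ104 replicate 4, where the adjusted p in edgeR was lowest (0.00394 and 0.00351). The labels do not say that replicate numbers pair the samples. Neither gene passed in limma-voom or in an edgeR fit of the 7 libraries alone.

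Sertoli genes showed the widest gradation. Amh (chromosome 10, 80805243 to 80807648) stood at 1690, 1260 and 1400 CPM in WT and at 0.361, 155, 489 and 1170 CPM in Δ104 replicates 1 to 4, or 0.0249%, 10.7%, 33.8% and 80.5% of the WT mean. The lowest rested on 13 counts. The 4 libraries thus spanned a 3230-fold range, and all lay below WT. Sox9, which drives Sertoli fate, stood at 11.6, 57.8, 116 and 88.9 CPM against a WT mean of 101.0 ± 2.78 (SD, n = 3), so that replicate 3 lay above every WT library and the other 3 below. Sox8, its close relative, stood at 2.22, 15.2, 28.0 and 35.8 CPM against 34.7 to 36.6.

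The effectors of the Sertoli cell mostly followed the order of Amh. Dhh, the ligand that instructs Leydig cells, stood at 0.417, 21.5, 46 and 67.2 CPM against 61.0 to 74.1 in WT. Ptgds, which makes prostaglandin D2, stood at 0.778, 23.9, 59.1 and 136 CPM against 123 to 132. Cyp26b1 stood at 3.61, 93.2, 245 and 220 CPM against 266 to 343. In replicate 1 all 16 effectors lay more than 2-fold below the lowest WT library, in replicate 2 14 did, in replicate 3 2 did and in replicate 4 none did. Over the 15978 genes of at least 1 CPM on average, 6.95%, 2.33%, 0.576% and 0.983% did so in replicates 1 to 4. The median of the list relative to the WT mean was -4.78, -1.56, -0.51 and -0.02 (log2).

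As groups, neither Sertoli list had a called gene. All 16 effectors and all 5 transcription factors had negative log2 fold changes, with medians of -0.90 and -0.77, and 4 effectors and 1 factor lay below WT without overlap, as did 9.40% of all genes. The adjusted p was 0.608 for Amh (log2 fold change -1.68, SE 1.60) and 0.690 for Sox9 (-0.56, SE 0.67) in edgeR. The value for Amh was -2.76 without Δ104 replicate 4, -2.71 with the replicate block and -4.49 in limma-voom, and did not pass in any of them. The effectors' median was -2.21 in limma-voom, -1.47 without replicate 4 and -0.56 without replicate 1. Sry, the Y-linked gene that starts testis development, had 6 and 9 counts in Δ104 replicates 1 and 2 and 0 in replicates 3 and 4, against 13, 12 and 9 in WT. At this stage Sry is normally near its end in mouse gonads.

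Pre-granulosa genes ran opposite to this order. Foxl2 (chromosome 9, 98955288 to 98958543) stood at 0.83, 0.777 and 0.633 CPM in WT and at 77.0, 40.5, 13.0 and 1.22 CPM in Δ104 replicates 1 to 4. These are 103, 54.3, 17.4 and 1.63 times the WT mean, and no Δ104 library overlapped with WT. Fst, which encodes the activin inhibitor follistatin, stood at 175, 64.8, 11.5 and 1.12 CPM against 1.26, 1.01 and 1.69. Replicate 4 lay inside the WT range of Fst and replicate 1 was 132 times the WT mean. Wnt4 stood at 194, 103, 64.0 and 39.7 CPM against 70.9, 30 and 41.4, and its WNT partner Rspo1 at 85.1, 52.2, 30.9 and 15.6 CPM against 15.7 to 19.4.

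**Figure D1:**
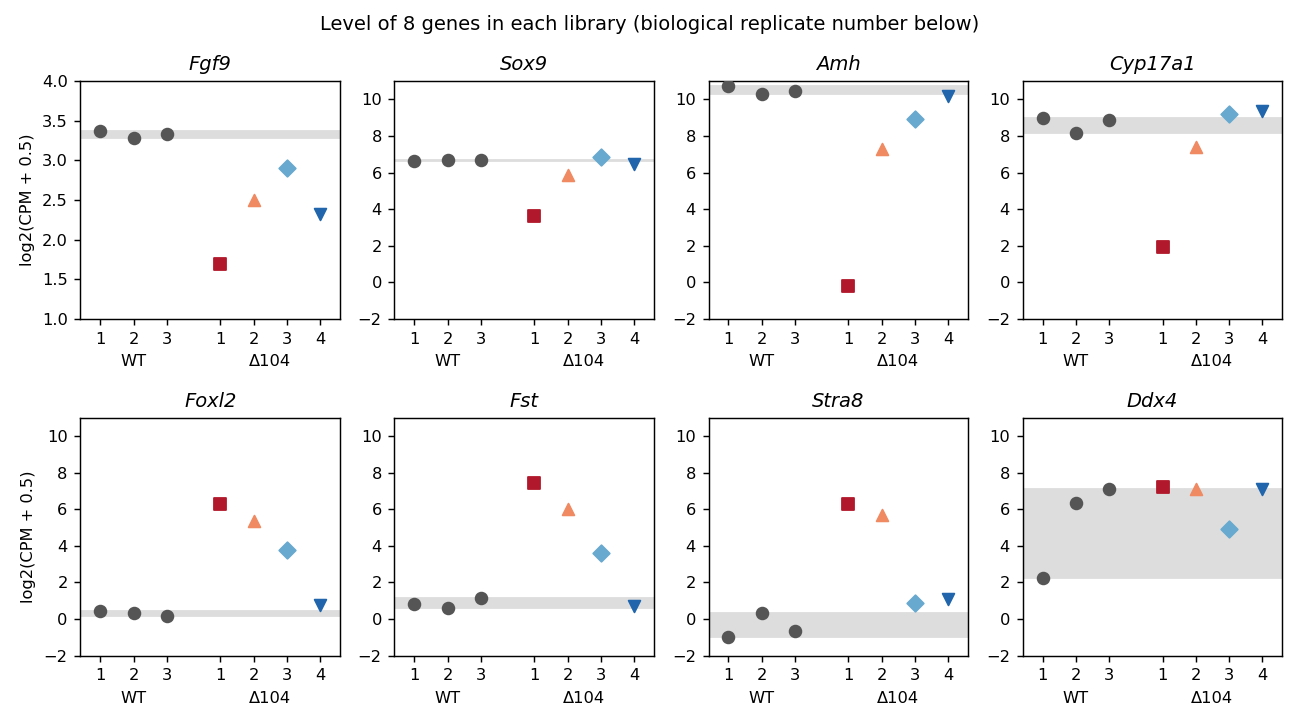
Each panel gives 1 gene as log2(CPM + 0.5) for the 3 WT libraries (circles) and Δ104 replicates 1 to 4 (square, triangle, diamond, inverted triangle), and the grey band is the WT range. The Fgf9 panel has its own, narrower axis. Foxl2 and Fst are highest in replicate 1 and nearest to the WT band in replicate 4, Amh is lowest in replicate 1 and nearest in replicate 4, and Ddx4 does not follow this order.

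Other pre-granulosa transcription factors had the same pattern. Irx3 stood at 115, 51.4, 12 and 1.17 CPM against 2.25 to 4.52, Msx1 at 41.9, 20.5, 6.92 and 2.38 against 2.34 to 2.88, and Runx1 at 73.0, 36.3, 14.9 and 3.21 against 3.44 to 6.88. Not all members had it: Nr2f1 was lower without overlap (6.05, 9.39, 12.6 and 16.1 CPM against 18.1 to 37.9), and Fzd1 also lay below WT. Of the 19 genes, 16 had positive log2 fold changes and the median was 1.23, or 0.56 without Δ104 replicate 1. More than 2-fold above the highest WT library lay 15 in replicate 1, 11 in replicate 2, 5 in replicate 3 and none in replicate 4. Over all 15978 genes, 4.94%, 3.22%, 2.48% and 0.407% did so.

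No pre-granulosa gene passed the test between the groups of 4 and 3, with 15 of 19 higher at an unadjusted p under 0.05, as were 10.4% of all genes, and 1 lower, as were 5.31%. Foxl2 (log2 fold change 5.47, SE 1.09) and Fst (5.59, SE 1.15) both had an adjusted p of 0.0621 in edgeR. Both passed the threshold without replicate 3, without replicate 4, with replicate numbers as a block, with no filter on low counts and in DESeq2. They missed it in the other leave-one-out fits, in limma-voom and in the edgeR fit of the 7 libraries alone. The smallest adjusted p, from DESeq2, was 9.38e-06 for Foxl2 and 8.04e-06 for Fst. In the authors' deposited table, where fold changes are WT over Δ104, Foxl2 had -5.48 with an adjusted p of 9.39e-06, Fst -5.6 with 8.07e-06, and Fgf9 0.98 with 0.162.

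A balance of supporting-cell genes was computed for each library as its mean log2 CPM over the 21 Sertoli genes minus that over the 19 pre-granulosa genes. WT replicates had balances of 2.94, 3.23 and 3.05. Δ104 replicates 1 to 4 had -4.25, -0.27, 1.62 and 3.16. Replicate 4 thus lay inside the WT range, replicate 1 had the lowest balance of all 22 libraries, and replicates 2 and 3 lay between. The SD over the Δ104 libraries was 3.20, against 0.15 in WT.

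The order of Fgf9 levels was not the order of balances. Replicate 4, with a balance of 3.16, had less Fgf9 (4.52 CPM) than replicate 2 (5.16 CPM, balance -0.27) and replicate 3 (6.98 CPM, balance 1.62). The Fgf9 values of replicates 2, 3 and 4 rested on 105, 120 and 93 counts. The small gap between replicates 4 and 2 may thus be counting error, whereas that between replicates 4 and 3 was wider. Replicate 1 was lowest in both Fgf9 and balance. Among the other deletions, 5 of 6 Δ225 libraries had 3.69 to 6.36 CPM of Fgf9 and balances of 2.50 to 3.16, and the sixth had 16.5 CPM and a balance of 2.05. The Δ93 libraries had 2.30 to 4.75 CPM and balances of -3.99 to 0.19, and the Δ306 libraries 2.17 to 2.94 CPM and -3.10 to -0.43. The Δ104 libraries were the only group with balances both inside the WT range and below every Δ93 library.

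**Figure D2:**
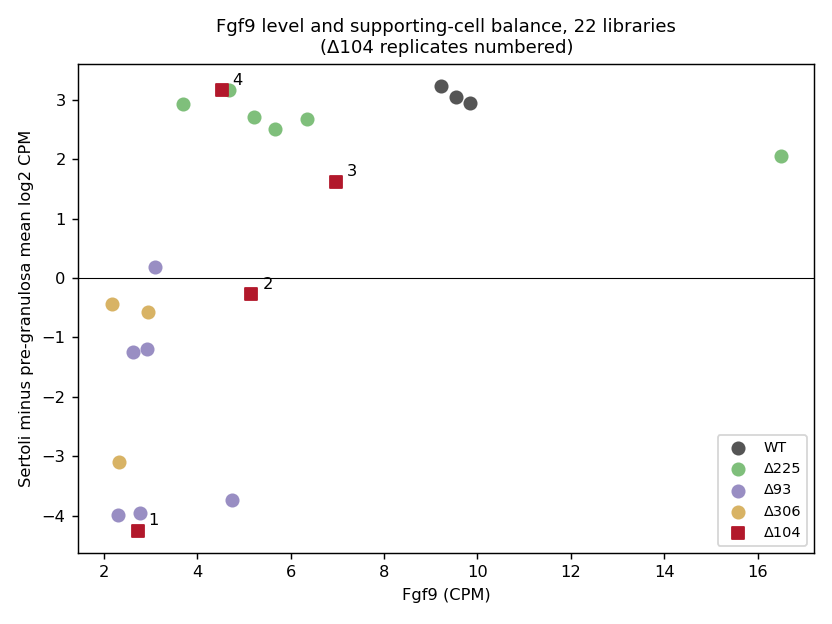
The x axis is Fgf9 in CPM and the y axis the supporting-cell balance (mean log2 CPM of Sertoli minus pre-granulosa genes) of each of the 22 libraries, by group, with the Δ104 replicates numbered. Δ104 replicate 4 sits level with WT at 4.52 CPM of Fgf9, and replicate 1 at the bottom at 2.72 CPM.

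Genes of the early gonad, which both supporting fates express, differed less. Nr5a1, the master regulator of steroidogenic and supporting cells, was lower without overlap (166, 176, 260 and 283 CPM against 355 to 391). Emx2 stood at 197, 128, 114 and 51.8 CPM against 53.6 to 59.0, and Lhx9 at 386, 268, 282 and 170 against 139 to 181. Gata4 overlapped with WT (331, 376, 465 and 304 CPM against 373 to 437). None of the 8 genes of this list was called, and their median log2 fold change was 0.02.

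Fetal Leydig genes, which make androgens in the testis interstitium, were low in 2 of the 4 libraries. Cyp17a1 (chromosome 19, 46667165 to 46673172), a key enzyme of androgen synthesis, stood at 3.30, 165, 582 and 647 CPM in Δ104 against 501, 287 and 461 in WT. Replicates 3 and 4 exceeded every WT library, while replicate 1 had 0.794% of the WT mean. Cyp11a1, the first enzyme of steroid synthesis, stood at 0.694, 101, 373 and 457 CPM against 392, 177 and 294. Insl3, a Leydig hormone, stood at 0.0555, 0.393, 1.80 and 11.8 CPM against 4.09 to 6.39. All 9 genes of the list lay more than 2-fold below WT in replicate 1, 5 in replicate 2 and none in replicates 3 and 4. Over all 15978 genes, 6.95%, 2.33%, 0.576% and 0.983% did so in replicates 1 to 4. No member was called (median log2 fold change -0.68, -0.27 without Δ104 replicate 1, -0.33 without replicate 2, -1.15 without replicate 4 and -1.49 in limma-voom). Without Δ104 replicate 1 the log2 fold changes of Cyp17a1 and Cyp11a1 turned positive, to 0.16 and 0.11.

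Stromal genes followed the Leydig genes in replicate 1. Gli1, a target of hedgehog signalling, stood at 2.03, 40.5, 63.8 and 83.7 CPM against 80.9 to 101, and its fellow target Hhip at 3.22, 30.5, 67.6 and 66.5 against 81.4 to 132. The stromal receptor Pdgfra stood at 193, 408, 621 and 403 CPM against 456 to 552. Igf1 was higher in all Δ104 libraries without overlap (89.6, 95.4, 95.4 and 44.7 CPM against 31.8 to 41.6). The list of 12 had no called gene and a median of -0.40.

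Germ-cell genes have to be read beside the low germ-cell content of WT replicate 1 and Δ104 replicate 3. Stra8 (chromosome 6, 34920163 to 34939344), the retinoic acid target that opens meiosis, stood at 76.7, 50.5, 1.34 and 1.65 CPM in Δ104 and at 0, 0.777 and 0.132 CPM in WT. Set against Ddx4 in the same library, Stra8 counts were 51.8%, 37.2%, 4.57% and 1.22% of Ddx4 counts in Δ104 replicates 1 to 4. In WT they were 0 of 170 counts in replicate 1, which allows up to 1.76%, and 0.955% and 0.0951% in replicates 2 and 3. Replicates 1 and 2 stood high on both measures, replicate 3 was above every WT value on both, and replicate 4 lay within the limit of WT replicate 1 on the second.

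Rec8, a meiotic cohesin, stood at 98.6, 68.0, 6.45 and 8.66 CPM against 2.86 to 4.54, without overlap. Meioc, which sustains meiotic prophase, stood at 53.3, 47.4, 0.872 and 4.82 CPM against 0.377 to 3.54. All 14 meiotic genes had positive log2 fold changes (median 1.42), and 9 lay more than 2-fold above WT in replicate 1, 9 in replicate 2 and none in the others. Over all 15978 genes, 4.94%, 3.22%, 2.48% and 0.407% did so in replicates 1 to 4. The median was 1.00 without WT replicate 1 and 2.11 without WT replicate 3. Of 10 genes shared by all germ cells, 8 also had positive values (median 0.63). None was called: the adjusted p was 0.0925 for Stra8 (log2 fold change 6.65, SE 1.68) and 0.0621 for Rec8 (3.64, SE 0.77) in edgeR. With WT replicate 1 and Δ104 replicate 3 both left out, the values were 6.47 (adjusted p = 0.243) and 3.83 (adjusted p = 0.183), and the list's median was 1.29. Both genes passed in DESeq2 (adjusted p of 0.00124 and 3.46e-05) and without Δ104 replicate 4 (0.0242 and 0.00496 in edgeR), and Rec8 also with the block, with no filter and without replicate 3. In limma-voom and in the edgeR fit of the 7 libraries alone neither passed.

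Genes shared by all germ cells did not follow the balance. Summed over 10 such genes, the level was 62.2, 714 and 1000 CPM in WT and 1130, 855, 253 and 1150 CPM in Δ104. Of the genes of male germ cells, the Nodal targets Lefty1 and Lefty2 were lowest in replicate 1 (0.916 and 0.444 CPM) and highest in replicate 4 (44.2 and 67 CPM), against 1.56 to 35.3 and 5.07 to 65.1 in WT. Nanos2, which marks male germ-cell commitment, had 2.04 CPM in replicate 4 and 0 in the other 3, against 0 to 0.554 in WT. Dmrt1, made by both Sertoli and germ cells, overlapped with WT (52.3, 48.3, 27.3 and 64.2 CPM against 31.2 to 75.0).

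Matrix and endothelial genes had mostly negative log2 fold changes. Collagen IV of the basement membrane was lower in all Δ104 libraries: Col4a1 stood at 545, 1060, 1760 and 1410 CPM against 2320 to 2860, an edgeR log2 fold change of -1.12 (adjusted p = 0.121, SE 0.31). Endothelial genes had a median of -0.80 and all 10 had negative values, 5 without overlap (9.40% of all genes). One of them, Tie1, stood at 20.8, 31.3, 39.0 and 52.8 CPM against 62.9 to 107. None of the 12 matrix or 10 endothelial genes was called in edgeR, while Col4a1 and Tie1 passed in DESeq2 (adjusted p of 0.0218 and 0.0468) and with the replicate block (0.0474 each). Both missed the threshold in limma-voom and in the edgeR fit of the 7 libraries alone.

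Muscle and blood genes mark tissue other than gonad cells, and none of the 10 in either list was called. Myl2, a cardiac and slow-muscle myosin light chain, stood at 0.222, 0.541, 0.0581 and 0.681 CPM against 5.35 to 6.25, in all 4 libraries more than 2-fold below WT. Of the 10 striated muscle genes 6 were lower without overlap, against 9.40% of all genes (median log2 fold change -2.22), with summed levels of 25.6, 29.9, 34.9 and 50.7 CPM against 67.2 to 156. Globin and other red-cell genes summed to 34100, 15500, 26800 and 29400 CPM against 13300 to 16400. Macrophage genes overlapped with WT as a sum ( 41.0 to 52.0 CPM against 46.6 to 65.7). The part of attached tissue and blood in the other results was not tested.

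**Figure D3:**
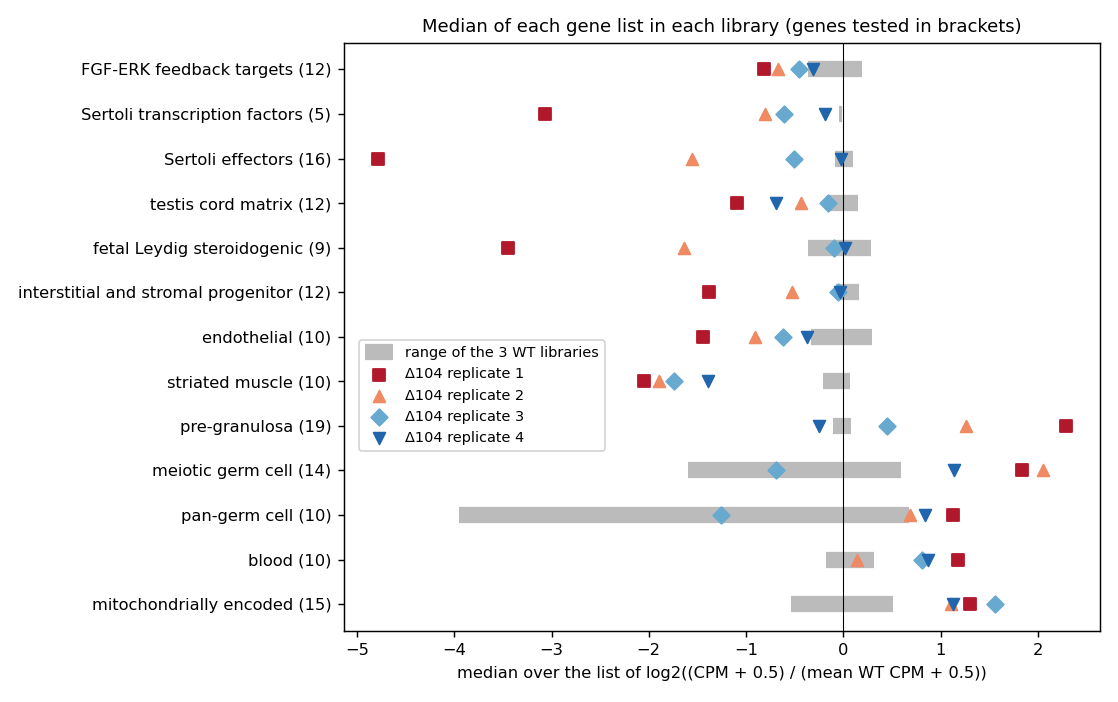
For 13 gene lists (number of genes tested in brackets), points give the list's median log2((CPM + 0.5)/(mean WT CPM + 0.5)) in each Δ104 library and grey bars the range of the same median over the 3 WT libraries. Sertoli effectors run from -4.78 in replicate 1 to -0.02 in replicate 4 and pre-granulosa genes from 2.29 to -0.25, whereas striated muscle and mitochondrially encoded genes are shifted in all 4.

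Genes encoded by mitochondrial DNA were higher in every Δ104 library, whatever its balance. The 15 genes summed to 29700, 26100, 33400 and 27500 CPM in Δ104 against 12100, 8610 and 18800 in WT, and 13 of 15 were higher without overlap, against 8.68% of all genes. Of the 15, only mt-Rnr1 and mt-Rnr2 were called. The median over the list relative to the WT mean was 1.30, 1.11, 1.56 and 1.13 (log2) in Δ104. In the other deletions, from group means, it was 1.97 in Δ225, 1.19 in Δ93 and 0.99 in Δ306, so that WT stood apart from all 4 deletions. Whether deletion and WT libraries were processed together is not given in the sources used here. The labels number WT and Δ306 replicates in the same style, and those of Δ104, Δ225 and Δ93 as biological replicates. A difference in processing between Δ104 and WT could not be told apart from the deletion.

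The 21 tested genes around Fgf9 on chromosome 14 had a median of 0.08 and none was called. The log2 fold change was largest for Tnfrsf19, a receptor of the TNF family, at 311, 142, 53.0 and 18.9 CPM against 21.3 to 28.5, in the order of the balance (adjusted p = 0.0905 in edgeR). Of the nearest members of the list, Zdhhc20 was slightly above WT in all 4 libraries (75.5, 78.2, 91.7 and 91.6 CPM against 67.9 to 71.0, adjusted p = 0.34 in edgeR) and Micu2 overlapped with it (71.1 to 89.7 against 77.3 to 86.9).

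Set beside the WT range gene by gene, the 4 Δ104 libraries ranked as they did by balance. Of 15978 genes, replicate 1 had 789 more than 2-fold above the highest WT library and 1111 more than 2-fold below the lowest, 11.9% together. Replicate 2 had 515 and 372 (5.55%), replicate 3 had 396 and 92 (3.05%) and replicate 4 had 65 and 157 (1.39%). WT replicate 1, measured in the same way against the other 2 WT libraries, had 222 and 531 (4.71%), and WT replicates 2 and 3 had 70 and 34 genes in all. Against pairs of WT libraries replicate 4 had 341 to 374 genes, so it was nearer to WT than WT replicate 1 was. The count of replicate 3 rested on WT replicate 1, without which it grew from 488 to 1088.

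**Figure D4:**
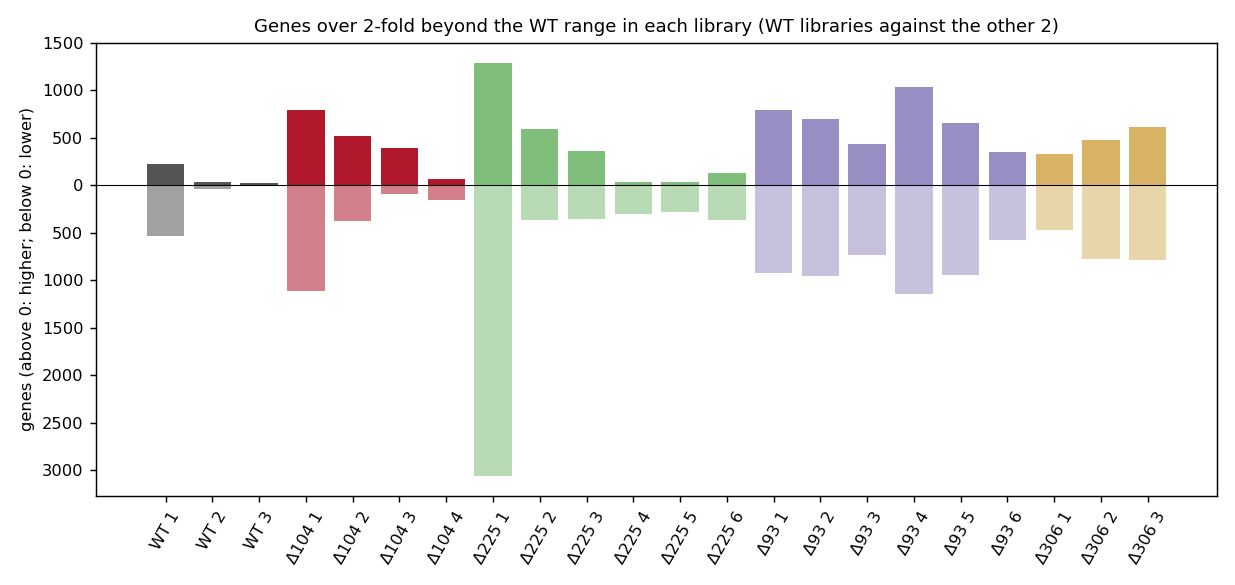
Bars give, for each of the 22 libraries, how many of 15978 genes lay over 2-fold above the highest WT library (upward) or below the lowest (downward, paler), with each WT library set against the other 2. Within Δ104 the total is 1900 genes in replicate 1, 887 in replicate 2, 488 in replicate 3 and 222 in replicate 4, and Δ225 replicate 1, at 11.6 M counts the shallowest library, has 4339.

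The libraries share the WT range, so their genes outside it are not independent. Replicate 1 alone had 292 genes above and 743 below. In all 4 libraries 14 genes lay above and 8 below, while 9 genes lay above in one library and below in another. Among the 8 were Myl2, the endothelial receptor gene Gpr182 (6.14, 8.26, 11.3 and 9.92 CPM against 23.2 to 29.9) and the lipase gene Pnliprp2 (1.28 to 1.46 CPM against 3.52 to 4.86), which were chosen after their values were seen.

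The spread among the Δ104 libraries was larger than that in WT. The SD of log2 CPM over the 4 libraries exceeded 1 for 1267 of 16153 genes (7.84%), against 651 (4.03%) over the 3 WT libraries, 1567 (9.70%) in Δ225, 866 (5.36%) in Δ93 and 474 (2.93%) in Δ306. SDs over 3, 4 and 6 libraries are not equally precise. Δ104 replicates 2 to 4 also had fewer counts than any WT library. With libraries thinned to the same total, Δ104 had 1222 such genes, but WT was not recounted at that depth. Among 1187 such genes given an order, the most frequent, with 241 genes (20.3%), ran from replicate 4 at the top through 3 and 2 to 1, the order of Amh. Its reverse, the order of Foxl2, came next with 200 genes (16.8%).

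The 12 genes with the widest range were mostly genes lowest in replicate 1. After Amh (11.43 on the log2 scale) came Ren1, the renin gene, at 0.167, 93.3, 240 and 300 CPM against 141 to 275 (range 10.37), and Cyp11a1 (9.24). Hsd17b3, which completes testosterone synthesis in the fetal testis, stood at 0.167, 16.6, 38.1 and 60.8 CPM against 41.8 to 50.6. Sostdc1 (0.111, 17.1, 21.3 and 47.4 CPM against 21.6 to 28.8), Cst9, Nppc and Nts had the same order. In the other direction ran Chrm4, a muscarinic receptor gene, at 74.5, 21.9, 1.98 and 0.195 CPM against 0.475 to 0.583, and Phlda2, an imprinted growth gene, at 27.0, 7.81, 0.233 and 0.0486 against 0.0754 to 0.311. The remaining genes of the 12 were Cyp17a1 (range 7.59) and Uty, on the Y chromosome.

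Between the groups of 4 and 3 libraries 14 genes were called, all higher in Δ104 (0.0610% of 22941), where 3610 (15.7%) had an unadjusted p under 0.05. The genes fell into 2 patterns of values. In the first, replicate 1 was highest and replicate 4 nearest to WT, the order of the balance. In the second, the Δ104 libraries did not follow that order and all lay above WT.

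To the first pattern belonged Tns4, a tensin of focal adhesions (chromosome 11), at 11.6, 5.6, 1.8 and 0.681 CPM against 0.350 to 0.377, an edgeR log2 fold change of 3.76 (adjusted p = 0.0342, SE 0.67). Tmem171 (chromosome 13) stood at 7.83, 5.70, 1.57 and 0.681 CPM against 0.251 to 0.290, and Gpr55, a lysolipid receptor gene on chromosome 1, at 7.03, 3.78, 0.814 and 0.486 against 0.0264 to 0.151. Gabra4, a GABA receptor subunit on chromosome 5, stood at 75.0, 49.7, 40.1 and 20.9 CPM against 15.2 to 17.5. These 4 did not overlap with WT even in replicate 4. Il13ra2, a decoy receptor for interleukin 13 on the X chromosome, stood at 2.14, 1.62, 0.872 and 0.146 CPM against 0.0754 to 0.185, with replicate 4 inside the WT range. Isx, an intestinal homeobox gene on chromosome 8, had 409, 74, 19 and 0 counts in Δ104 and 0, 1 and 2 in WT. Its ratio of summed counts, scaled to library size, was 230 (95% counting interval 78.2 to 1120).

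To the second belonged Dpysl2, a regulator of microtubules on chromosome 14, at 84.9, 86.4, 83.3 and 56.0 CPM against 38.3 to 43.0 (log2 fold change 0.96, SE 0.14, adjusted p = 0.00955 in edgeR). Mob1b, a Hippo pathway kinase activator on chromosome 5, stood at 51.8, 54.4, 60.1 and 41.1 CPM against 22.8 to 26.4, and Stk26, a kinase gene on the X chromosome, at 58.6, 57.8, 65.7 and 38.0 against 25.6 to 31.1. The mitochondrial ribosomal RNAs mt-Rnr1 (462, 304, 303 and 330 CPM against 81.9 to 131) and mt-Rnr2 (891, 656, 765 and 758 against 167 to 268) also belonged here. The remaining 3 are processed pseudogenes, Gm5292, Gm10362 and Gm10736. Reads of a pseudogene and of its parent gene can be split by the counting, so their values are uncertain. Gm5292 had the smallest adjusted p (0.000222 in edgeR, log2 fold change 5.80, SE 0.64), on 4 WT counts in all and a ratio of 53.5 (95% counting interval 20.5 to 199).

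Calls at this size depended on single libraries. Leaving out each of the 7 libraries in turn gave 1 to 528 called genes, with 528 (425 higher, 103 lower) without Δ104 replicate 4 and 1 without WT replicate 1 or WT replicate 3. Gm5292 was called in each of these 7 fits. DESeq2 called 611 genes, 463 higher and 148 lower in Δ104 (2.02% and 0.645%), and the authors' deposited table has 591 genes with an adjusted p under 0.05, 451 higher and 140 lower in Δ104. A fit of the 7 libraries alone called none in edgeR, with 4108 genes at an unadjusted p under 0.05.

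**Figure D5:**
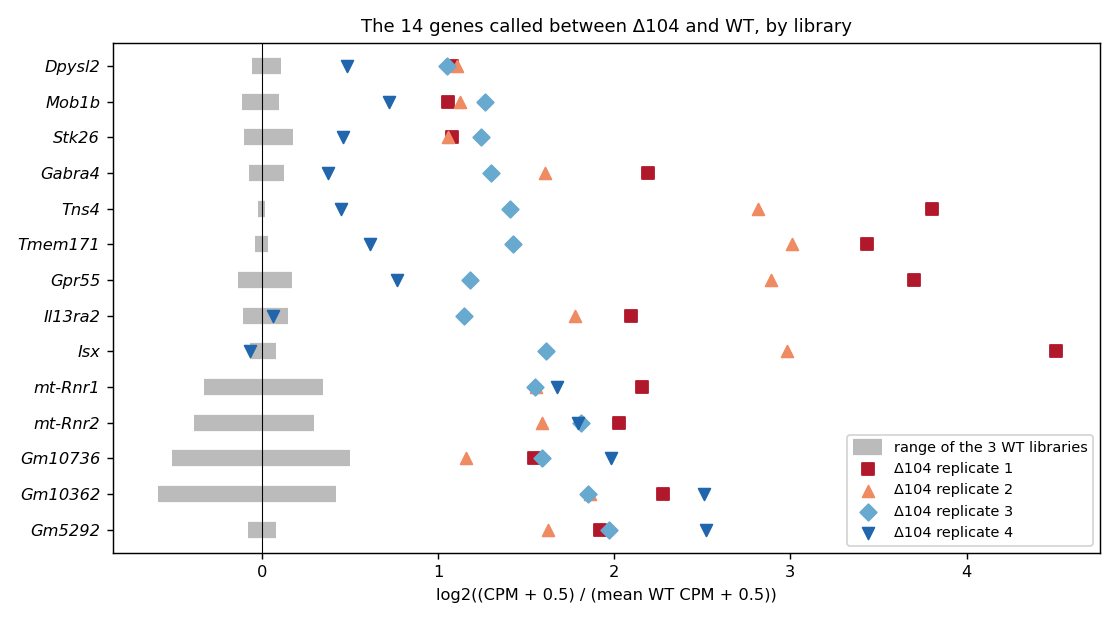
Points give log2((CPM + 0.5)/(mean WT CPM + 0.5)) of each Δ104 library for the 14 called genes and grey bars the range of the 3 WT libraries. Tns4, Tmem171, Gpr55, Il13ra2 and Isx are highest in replicate 1 and nearest to WT in replicate 4, while the mitochondrial rRNAs and the 3 pseudogenes stand apart from WT in all 4 libraries.

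Several of the same genes also differed between WT and the other deletions. The medians of mt-Rnr1 were 252, 369 and 330 CPM in Δ225, Δ93 and Δ306, those of Gm10736 76.0, 84.9 and 90.2 CPM and those of Mob1b 47.4, 47.1 and 39.4 CPM, all above WT. These groups share the WT libraries, so the values are not independent of those of Δ104. Dpysl2 and Gm5292 were higher in Δ104 than in Δ306 as well (log2 differences of 0.79 and 3.86, adjusted p of 0.0393 and 0.0177 in edgeR), with medians of 43.9 and 0.119 CPM in Δ306.

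Tested directly against the other deletions, Δ104 differed in 142 genes higher and 6 lower from Δ225 (0.619% and 0.0262%), in 11 higher and 1 lower from Δ93 (0.0479% and 0.00436%), and in 14 higher and 1 lower from Δ306 (0.0610% and 0.00436%). The comparison with Δ225 held 7 of 19 pre-granulosa genes, all higher in Δ104: Bmp2, Foxl2, Fst, Irx3, Irx5, Msx1 and Runx1. Foxl2 stood at 0.339 to 7.19 CPM in the 6 Δ225 libraries, which were exceeded by Δ104 replicates 1, 2 and 3 and not by replicate 4 (log2 difference 3.40, SE 0.74, adjusted p = 0.0317 in edgeR). Irx3 stood at 0.694 to 3.24 CPM in Δ225 (difference 4.73, SE 0.72, adjusted p = 0.00463 in edgeR). Of the meiotic genes Rec8 was called, and of the genes called against WT Tns4, Gabra4, Isx, Gpr55 and Tmem171 were. This count rested on replicate 1: without it 9 genes were called.

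Lower than in Δ225 were, among others, the leptin receptor gene Lepr (2.30, 3.19, 4.53 and 5.16 CPM against 5.18 to 9.59), the fatty acid transporter gene Cd36 (4.42, 6.88, 8.14 and 7.49 against 12.9 to 18.9) and Fbxo32 (4.30, 8.11, 10.9 and 9.97 against 14.1 to 28.5). No Sertoli or Leydig gene was called between Δ104 and any other deletion.

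Against Δ93 and Δ306, whose balances lay mostly below 0, no pre-granulosa gene was called. The stromal ligand Wnt5a, which shapes the gonadal mesenchyme, stood at 117, 270, 447 and 315 CPM in Δ104, 279 to 357 in WT, 86.5 to 128 in Δ93 and a median of 98.4 in Δ306. It was higher than in both deletions (differences of 1.36 and 1.61, adjusted p of 0.0174 and 0.0346 in edgeR), though replicate 1 lay within the range of Δ93. Pcdh8 (0.666, 8.80, 12.4 and 17.0 CPM against 0.660 to 1.67) and the neurotrophin gene Bdnf (0.222, 2.16, 3.95 and 3.70 against 0.253 to 0.561) were higher than in Δ93, with replicate 1 inside the Δ93 range for Pcdh8 and below it for Bdnf. The prolactin receptor gene Prlr was higher than in Δ306 (4.36, 12.9, 32.4 and 27.0 CPM against 1.80 to 2.26, difference 3.27, SE 0.54, adjusted p = 0.0329 in edgeR). Without replicate 1 the count against Δ93 grew from 12 to 791 and that against Δ306 from 15 to 282.

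Imprinted genes, which are read from only the maternal or the paternal copy, also differed from Δ93. Mest stood at 560, 566, 591 and 532 CPM in Δ104 and 698 to 925 in WT, and at 2.41 to 9.26 CPM in Δ93 (difference 6.81, SE 0.32, adjusted p = 2.16e-11 in edgeR). Peg13 stood at 28.9, 21.5, 31.0 and 1.61 CPM in Δ104 and at 36.9, 5.36 and 31.0 in WT, and at no more than 0.390 CPM in Δ225 and 0.292 in Δ93. Such genes also varied within WT and within Δ104. H19 stood at 1250, 9.21 and 1590 CPM in WT and at 298, 13.9, 9.19 and 12.5 in Δ104, and Nnat at 123, 118 and 1.5 in WT and 83.7 to 122 in Δ104. Imprinted genes as a list had a median of -0.11 between Δ104 and WT, and none of 27 was called.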

How the data were processed

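RNA-seq libraries of whole gonads were analysed from the deposited read counts per gene, which the authors did not normalize. Per the submitters' processing notes the tools were STAR (2.7.10a for some samples), featureCounts of Subread and DESeq2, with mm10; the strand setting of the counting is not given in the sources used here. The authors also deposited log2 fold changes and p-values of their own comparison, which are quoted only where named. Gene names came from the reference annotation (51880 of 57186), the deposited comparison (4775) or the identifier (531). Coordinates are those of the GRCm38 reference, which may not be the authors' annotation.

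Counts of 22 libraries were filtered with filterByExpr, scaled by TMM and tested with edgeR 4.0.16 (quasi-likelihood F-test, 17 residual degrees of freedom, R 4.3.3) and Benjamini-Hochberg adjustment. DESeq2 1.42.0 and limma-voom (limma 3.58.1) were alternatives, with other scalings and filters, a fit of the 7 libraries, a replicate block and each replicate left out. With 3 against 4 libraries an exact two-sided permutation test of 1 value cannot go below p = 0.0571, so none was used. For counts beyond the WT range, 0.5 CPM was added to each value and genes needed a mean of at least 1 CPM over the 7 libraries. The spread used log2 CPM with a prior count of 2. Counting intervals are at 95%, the limit for a count of 0 is 3 counts, and both cover counting error only.

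Tested on simulated counts for Δ104 against WT (22145 genes), the fit called 26% of genes raised 2-fold and 78% of those raised 4-fold, 36% of those lowered to 0.5 and 80% of those lowered to 0.25, and 3 of 21945 unchanged genes. The simulation gave each gene the same spread in every group, with no gradation between the Δ104 libraries. These rates may thus not hold for the real Δ104 libraries, which spread more than WT.

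The text names Fgf9, every called gene, the list members called in a contrast or with the largest changes, textbook markers, the 12 genes of widest range among Δ104, and the largest differences from the other deletions; further list members were named after their values were seen. The groups compared, the 27 gene lists (298 genes) and the tests were chosen with earlier results of these data known.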

Additional observations from a re-analysis of the deposited data

Results flagged for a closer look

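In 9 of 54 groups of 4 or 6 libraries, 1 library lay far from the others. The rule used picks about 1 in 20 groups of normally spread values. It was applied to CPM without logs, and some of the genes were named for their wide range in these data. The 9 groups thus cannot be set against that rate. Among the Δ104 libraries, replicate 4 was far above the rest for Insl3 (11.8 CPM), Nanos2 (2.04 CPM) and Ddx3y (21.5 CPM), and far below them for Dpysl2 (56.0 CPM, still above WT). Replicate 3 was far below the rest for Ddx4 (29.2 CPM). Replicate 1 was far above the rest for H19 (298 CPM) and mt-Rnr1 (462 CPM). In the other deletions, Fgf9 was far higher in 1 Δ225 library (16.5 CPM) and in 1 Δ93 library (4.75 CPM) than in the rest.

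For 16 differences, among 49 genes set against 3 deletions, the test between Δ104 and another deletion passed the threshold in edgeR. Against Δ225 the log2 differences of the supporting-cell and germ-cell genes were 3.40 for Foxl2, 3.70 for Fst, 4.73 for Irx3, 2.77 for Msx1, 2.58 for Runx1 and 2.57 for Rec8. Those of other genes were 5.76 for Chrm4, 5.1 for Phlda2, 3.75 for Tmem171, 3.89 for Gpr55, 3.24 for Tns4, 1.00 for Gabra4 and 7.59 for Isx. Against Δ306 they were -5.25 for Myl2, 3.86 for Gm5292 and 0.79 for Dpysl2.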

How the results depend on the processing

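The count of genes called between Δ104 and WT (14) was 611 in DESeq2, 9 in limma-voom, 0 in edgeR on the 7 libraries alone (4108 at an unadjusted p under 0.05), 12 with RLE scaling, 26 with no composition factor, 31 with no filter, 3 at an adjusted p under 0.01, and 1 without both WT replicate 1 and Δ104 replicate 3, an alternative chosen after seeing the data. Leaving out 1 library gave 1 to 528. All 14 genes were among those called by DESeq2. With a replicate block 470 genes were called (296 higher, 174 lower). The replicate numbers did not pair the samples: deviations of same-numbered libraries had correlations of -0.13, 0.02 and -0.27.

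DESeq2 called 463 genes against Δ225, 550 against Δ93 and 416 against Δ306, and leaving out 1 Δ104 library gave 9 to 557, 3 to 791 and 1 to 282. Beyond a 4-fold margin of the WT range lay 493, 121, 94 and 18 genes in Δ104 replicates 1 to 4, and with a mean of at least 5 CPM the 2-fold counts were 1246, 498, 224 and 140. With 1 WT library left out, replicate 3 had 575 to 1088 and replicate 4 341 to 374. The genes of SD above 1 numbered 571 at that mean.

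The log2 fold change reversed for Cyp17a1 (-0.74 to 0.16 over the fits that leave out 1 library), for Cyp11a1 (-0.86 to 0.11) and for Nanos2 (-6.47 to 1.14, including -0.02 without WT replicate 1, and -1.33 in limma-voom and -2.15 with the block). The cause was not tested. The remaining values are those of genes and of list medians, and 686 of them stayed the same. For genes this means the same direction and side of the threshold. List medians have no p, and for them it means a move smaller than their SD over the Δ104 libraries. Another 3 list medians moved further. Of the gene values, 49 came to pass the threshold and 110 no longer passed. The last count includes called genes held to the stricter threshold of 0.01. The median of all genes moved by at most 0.1 (log2).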
